A study of Mus musculus with 6 samples.

Results

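Kruppel-like factors (KLFs) are DNA-binding proteins that carry similar C2H2 zinc fingers at their C-terminal end and bind GC-rich and CACCC-type sequences. The 10 genes described here, Klf2, Klf3, Klf4, Klf5, Klf6, Klf7, Klf9, Klf10, Klf13 and Klf15, were chosen by symbol from the 24346 gene symbols of the deposited table, and each had 1 row. The samples were primary articular chondrocytes, the cells of joint cartilage, isolated from ICR mice at postnatal day 4. Cells of 3 control libraries were kept without semaphorin 4D, a membrane and soluble ligand of plexin receptors, and those of 3 Sema4D libraries were stimulated with it. Both groups shared the strain, age and tissue, and no allele or other agent was named for either. The dose, the time and the form of the protein are not given in the sources used here, nor whether replicates came from separate animals or cultures. P-values therefore speak only of how these 6 libraries vary, and that variation may be technical.

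The family is usually divided by the cofactors that the N-terminal part binds. KLF2, KLF4, KLF5, KLF6 and KLF7 recruit acetyltransferases and act mostly as activators, KLF3 binds the corepressor CtBP, and KLF9, KLF10 and KLF13 bind the corepressor Sin3. KLF15 has no place in these groups. Several of the genes are known for fast changes in transcription after growth factors, hormones, cytokines or fluid flow, and KLF2 and KLF4 are studied in joint cartilage as regulators of matrix and protease genes. Targets overlap widely because the zinc fingers read similar sequences.

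The genes lie on 10 different chromosomes, and RefSeq lists all of them as protein-coding. In mm10 (GRCm38.p6) Klf4 spans chromosome 4, 55527137 to 55532475, Klf2 chromosome 8, 72319062 to 72321654, Klf3 chromosome 5, 64803521 to 64832901, and Klf6 chromosome 13, 5861489 to 5870393. Klf9 spans chromosome 19, 23141226 to 23168129, Klf10 chromosome 15, 38291464 to 38300711, Klf5 chromosome 14, 99298691 to 99313412, and Klf7 chromosome 1, 64029448 to 64122345. Klf13 spans chromosome 7, 63886351 to 63938915, and Klf15 chromosome 6, 90461043 to 90491803. The RefSeq promoter table (GRCm38.p6, 250 bases before to 50 after a transcript start) held 8 of the 10 genes, Klf5 and Klf10 being the others. The upstream 250 bases are printed for Klf4 and Klf2, whose levels were lower with Sema4D, and for Klf6, whose level was higher, with capitals on the CACCC element, on the GC box CCCGCCC and on the CCAAT box, each on either strand. Klf4 is on the minus strand (chr4:55532476-55532725), Klf2 on the plus strand (chr8:72318812-72319061) and Klf6 on the plus strand (chr13:5861239-5861488).
Klf4: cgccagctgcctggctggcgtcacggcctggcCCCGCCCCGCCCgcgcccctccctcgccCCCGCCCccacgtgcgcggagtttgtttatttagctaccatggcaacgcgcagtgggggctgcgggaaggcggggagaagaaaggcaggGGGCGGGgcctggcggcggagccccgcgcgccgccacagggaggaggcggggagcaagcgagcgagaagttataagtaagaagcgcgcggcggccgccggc
Klf2: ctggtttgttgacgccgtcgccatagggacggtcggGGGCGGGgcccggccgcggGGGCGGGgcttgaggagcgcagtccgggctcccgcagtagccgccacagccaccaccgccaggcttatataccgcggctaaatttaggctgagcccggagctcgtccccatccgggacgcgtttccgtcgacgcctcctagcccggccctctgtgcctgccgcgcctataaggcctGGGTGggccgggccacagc
Klf6: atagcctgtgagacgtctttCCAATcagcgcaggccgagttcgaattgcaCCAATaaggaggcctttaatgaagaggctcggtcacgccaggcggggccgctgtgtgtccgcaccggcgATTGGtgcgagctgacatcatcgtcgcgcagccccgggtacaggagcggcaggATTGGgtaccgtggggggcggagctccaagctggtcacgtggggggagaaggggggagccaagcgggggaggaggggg

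The Klf4 stretch held 4 CCCGCCC matches, a pair of which share bases, and neither CACCC nor CCAAT. Klf2 held 2 CCCGCCC matches and 1 CACCC, and Klf6 held 4 CCAAT matches without either of the other motifs. CACCC, the short form of the element that KLF proteins bind, was present in 6 of the 8 promoters, against 57.65% of 32544 promoters of the same length. CCCGCCC was in 5 of 8 (25.74% of all promoters) and CCAAT in 4 of 8 (37.36%). The E-box CACGTG was in 3 of 8 (7.166%). The TATA box TATAAA, the AP-1 site TGACTCA, the cyclic AMP element TGACGTCA, the glucocorticoid half-site TGTTCT and an NF-kappaB motif, searched on both strands, were each in 0 of 8. Among all promoters those sequences stood in 13.57%, 5.193%, 1.801%, 18.92% and 4.529%. The 8 promoters were rich in GC, from 58.3% in Klf7 to 76.7% in Klf3 against a median of 53% over all promoters. A match describes the letters in this window and was not tested for binding.

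Levels are given as FPKM (fragments divided by transcript length and by library size), a unit per length that can be compared between genes. Fold changes are log2 differences of FPKM + 1, Sema4D minus control, which understates the change of low genes, and an adjusted p under 0.05 by limma with Benjamini-Hochberg adjustment over 11603 genes was the threshold. Estimated from the steps of low values, depth was 1.25e+07 to 1.66e+07 fragments per library. FPKM columns summed to 492708 to 494123 in control and 518901 to 527492 in Sema4D libraries. Of all genes tested, 24.5% were called higher and 22.2% lower. The defining chondrocyte genes were abundant, with Col2a1 at 8396 to 10952 FPKM over the 6 libraries, and 10 of 10 chondrocyte markers fell with Sema4D (median log2 fold change -0.51, against 0.01 over all tested genes). Of these, Col2a1 missed the threshold after quantile normalization (adjusted p = 0.459, limma).

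With Sema4D, 3 of the 10 KLF genes fell, 2 rose and 5 did not pass the threshold. Klf4, Klf2 and Klf3 were the falls and Klf6 and Klf9 the rises. That is 5 of 10 called, against 46.7% of all genes tested, so the share called was near the background. All 10 passed the filter of a mean of at least 1 FPKM. The median log2 fold change of the 10 was -0.06, and the range was from -0.50 in Klf4 to 0.42 in Klf6. Of the 10, 0 passed limma's treat test against a minimum change of 1.5-fold, and 0 had an unadjusted p under 0.05 in it. The largest change, that of Klf4, was 1.42-fold by mean FPKM and under that minimum. The treat result for the 10 genes therefore only restates the sizes of their changes. That test called 4.42% of all genes higher and 1.72% lower. The control and Sema4D values did not overlap in 7 of the 10 genes, against 56.6% of all genes tested. In bulk RNA, fewer cells of a type and less RNA per cell cannot be told apart.

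**Figure D1:**
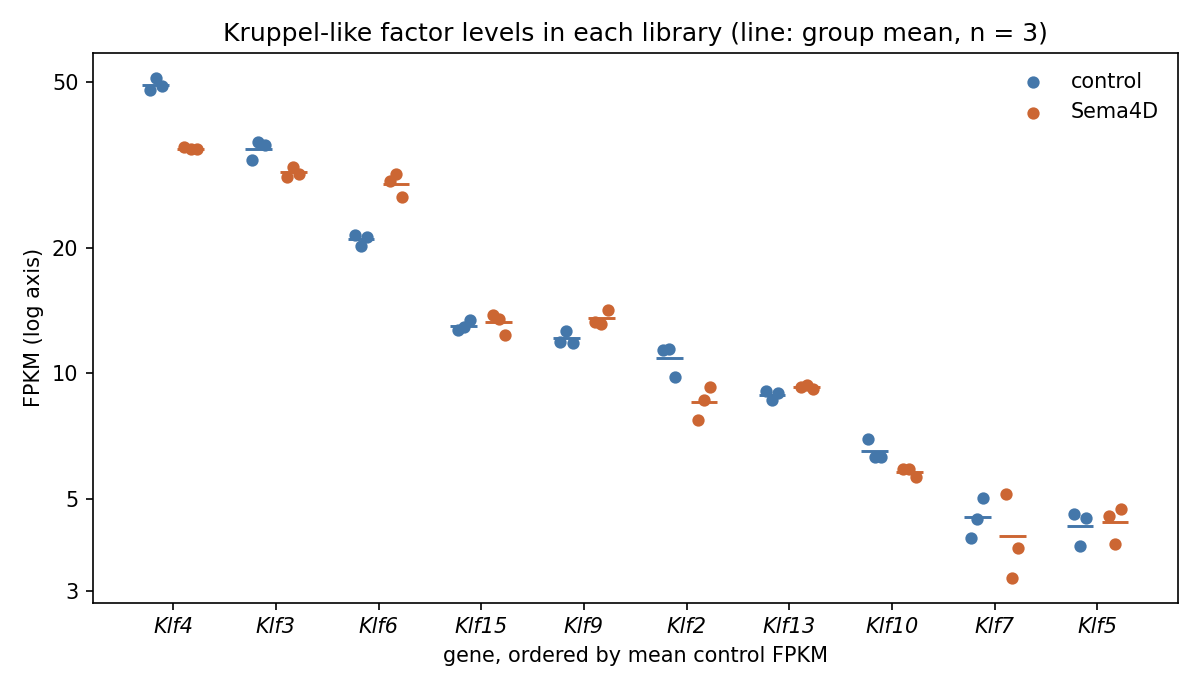
FPKM of each of the 10 KLF genes in every library on a log axis, with genes ordered by their control mean. Blue points are the 3 control and orange points the 3 Sema4D libraries, and lines are group means. Klf4 is the highest gene in both groups, and Klf6 moves up to near Klf3 in the Sema4D libraries.

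Klf4, a zinc finger activator and repressor best known for holding cells in a differentiated or a pluripotent state, was the most abundant of the 10 genes. Its level was 47.7, 51.1 and 48.9 FPKM in control replicates 1, 2 and 3 and 34.9, 34.4 and 34.5 FPKM in Sema4D replicates 1, 2 and 3. Every Sema4D library was below every control library, and the Sema4D libraries lay close together. The mean fell from 49.2 ± 1.73 to 34.6 ± 0.229 FPKM (SD over 3 libraries, control first here and below). The log2 fold change was -0.50 (SE 0.03, adjusted p = 6.81e-06 by limma). Klf4 thus fell by 29.7%, which put it at the 86.5th percentile of all tested genes by the size of its change.

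Klf2, first described in lung and later as the flow-responsive factor of endothelium, is the gene closest to Klf4 in function. It stood at 11.4, 11.4 and 9.79 FPKM in control and at 7.72, 8.61 and 9.25 FPKM in the Sema4D libraries. The groups did not overlap, but control replicate 3 was only slightly above Sema4D replicate 3. The mean fell from 10.9 ± 0.924 to 8.53 ± 0.772 FPKM (log2 fold change -0.32, SE 0.08, limma adjusted p = 0.00994). Klf2 rests on few fragments, about 237 to 340 per library if the longest annotated transcript is counted, and the counting error at such a number is 5.42% to 6.5%. Markers of endothelium, where Klf2 is abundant, were at or near 0. Pecam1 was 0 to 0.148 FPKM, Cdh5 0 to 0.063 FPKM and Kdr 0 to 0.0341 FPKM over the 6 libraries. The 8 endothelial markers together summed to 2.64 to 3.29 FPKM in control and 2.18 to 2.46 FPKM in Sema4D libraries, nearly all of it Egfl7, the only tested one, which fell (-0.30, adjusted p = 0.0107).

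Klf6, a widely expressed activator that responds early to injury and growth signals, moved the other way. It was at 21.5, 20.2 and 21.2 FPKM in control and at 29.0, 30.0 and 26.5 FPKM in the Sema4D libraries. All Sema4D libraries were above all controls, with Sema4D replicate 3 the lowest of its group. The mean rose from 21.0 ± 0.686 to 28.5 ± 1.78 FPKM, by 36% (log2 fold change 0.42, SE 0.05, adjusted p = 0.000194 by limma). Within a library, and so free of scaling between libraries, Klf4 stood at 2.22, 2.53 and 2.31 times the FPKM of Klf6 in control and at 1.2, 1.15 and 1.3 times in Sema4D replicates 1, 2 and 3. The pair was chosen after its values were seen, and the ratio is a description. The ratio of Klf4 to Klf2, both of which fell, was 4.56 ± 0.407 in control and 4.08 ± 0.401 in Sema4D libraries, and its ranges overlapped.

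Klf5 and Klf7, the other acetyltransferase-binding members, were the lowest of the 10 and did not pass the threshold. Klf5, an activator linked to proliferation and to cartilage and vessel remodelling, was at 4.59, 3.85 and 4.48 FPKM in control and 4.55, 3.9 and 4.73 FPKM in Sema4D libraries. Its groups overlapped, and the 95% interval of its log2 fold change ran from -0.17 to 0.21 (limma adjusted p = 0.851). Klf7, a factor known from neurons and fat cell precursors, was at 4.01, 4.48 and 5.03 FPKM in control and 5.14, 3.23 and 3.8 FPKM in Sema4D libraries. It varied more between replicates than any other of the 10 genes, with a coefficient of variation of 24.1% among the Sema4D libraries, where replicate 1 was the highest value of all 6. Its interval, -0.44 to 0.17 (adjusted p = 0.432), therefore leaves room for a fall nearly as large as that of Klf4. The log2 fold change of Klf7, -0.14 over all libraries, was -0.29 without Sema4D replicate 1 (adjusted p = 0.0544), -0.02 without Sema4D replicate 2 (0.925) and -0.07 without control replicate 3 (0.741), all by limma. The noncoding gene Gm26649, on the opposite strand, shares 3196 exonic bases with Klf7. The strand setting is not given in the sources used here, so reads on those bases could not be assigned to 1 gene. Gm26649 has no value among the deposited FPKM, and its level in these cells is not known.

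Klf3, the CtBP-binding repressor of the set and the runner-up by level in control, fell slightly. It stood at 32.5, 35.9 and 35.3 FPKM in control and 29.6, 31.3 and 30.1 FPKM in Sema4D libraries. The groups did not overlap, although control replicate 1 was near Sema4D replicate 2. The mean fell from 34.6 ± 1.83 to 30.3 ± 0.831 FPKM. It fell by 12.3% (log2 fold change -0.18, SE 0.04, adjusted p = 0.00993 by limma). Gm20033, a noncoding gene on the opposite strand, shares 404 exonic bases with Klf3, so that any reads of it on those bases could be counted there too. It also has no value among the deposited FPKM.

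Against 46.7% of all genes tested, 1 of 3 Sin3-binding members passed the threshold. This was Klf9, a gene induced by glucocorticoid and thyroid hormone. It was at 11.9, 12.6 and 11.8 FPKM in control and 13.3, 13.1 and 14.2 FPKM in Sema4D libraries, without overlap. The mean rose from 12.1 ± 0.438 to 13.5 ± 0.593 FPKM (log2 fold change 0.15, SE 0.05, adjusted p = 0.0315 by limma). This call was lost under 7 of 13 alternatives, among them both rescalings between libraries (0.08 after quantile normalization and 0.07 with equal column totals) and the omission of control replicate 1 or 3 or Sema4D replicate 1 or 3 (adjusted p 0.0537 to 0.0985 in those 4).

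Klf10, which is induced by TGF-beta and was first named for that, stood at 6.94, 6.31 and 6.29 FPKM in control and 5.89, 5.88 and 5.64 FPKM in Sema4D libraries. All Sema4D values were below the controls, yet the gene missed the threshold (-0.14, 95% interval -0.26 to -0.02, limma adjusted p = 0.0569), and it passed as lower under 3 of 13 alternatives. Klf13, a factor described in lymphocytes and heart, was at 9.05, 8.61 and 8.96 FPKM in control and 9.28, 9.35 and 9.17 FPKM in Sema4D libraries. The Klf13 groups did not overlap, but the difference was small (0.06, interval -0.04 to 0.15, adjusted p = 0.296) and its sign turned when columns were given equal totals (-0.02). Klf15, a regulator of amino acid and glucose use that glucocorticoids induce, was at 12.7, 12.9 and 13.5 FPKM in control and 13.8, 13.5 and 12.4 FPKM in Sema4D libraries. Its groups overlapped (0.02, interval -0.09 to 0.14, adjusted p = 0.743), and the interval excludes a fall or a rise of the size seen in Klf4 or Klf6.

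**Figure D2:**
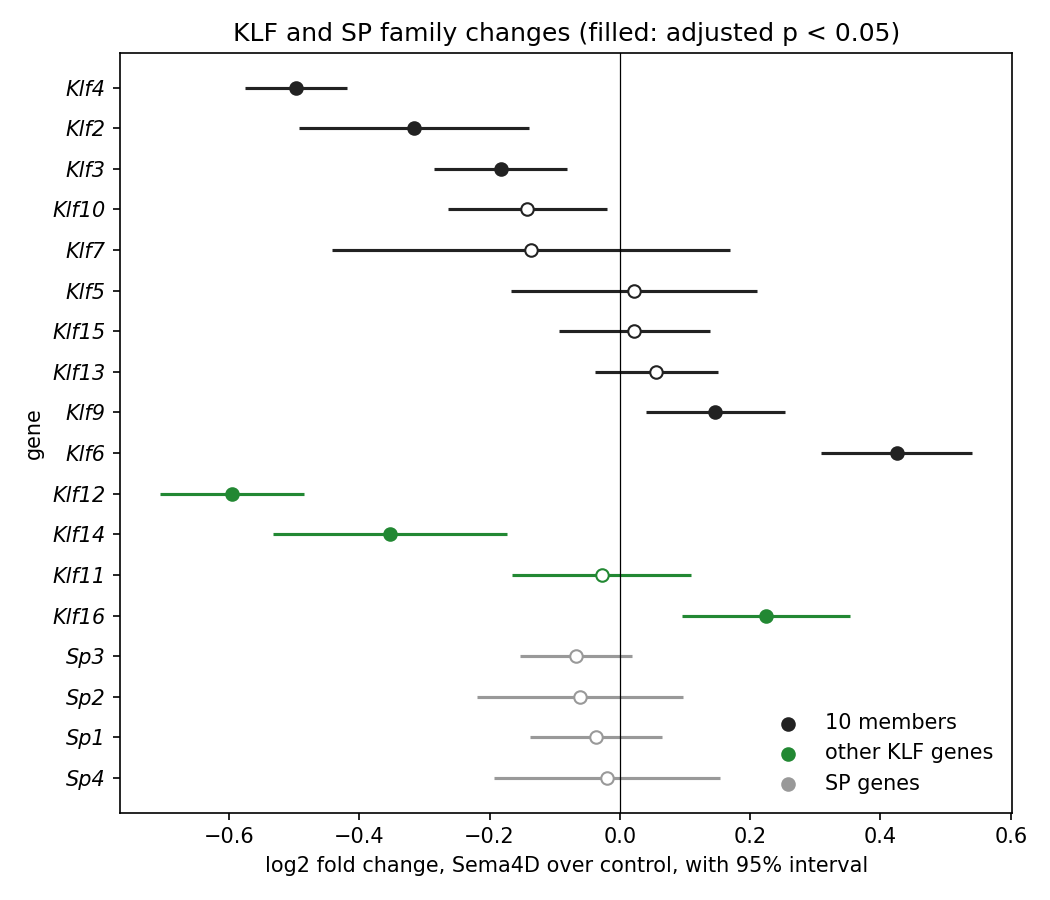
Log2 fold change of FPKM + 1, Sema4D over control, with its 95% interval from limma, for the 10 KLF genes (black), the other 4 tested KLF genes (green) and the 4 tested SP genes (grey). Filled points passed an adjusted p of 0.05. Klf4 and Klf12 stand furthest to the left and Klf6 furthest to the right, and no SP gene passed.

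The order of the 10 genes by mean FPKM was Klf4, Klf3, Klf6, Klf15, Klf9, Klf2, Klf13, Klf10, Klf7 and Klf5 in control. Only Klf7 and Klf5 overlapped as neighbours there. In the Sema4D libraries the order was Klf4, Klf3, Klf6, Klf9, Klf15, Klf13, Klf2, Klf10, Klf5 and Klf7, and the neighbours Klf3 and Klf6, Klf9 and Klf15, Klf13 and Klf2, and Klf5 and Klf7 overlapped. The top of the order had drawn together: Klf4, Klf3 and Klf6 spanned 21.0 to 49.2 FPKM by group mean in control and 28.5 to 34.6 FPKM in Sema4D libraries.

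The summed level of the 10 genes was 162.3, 167.4 and 165.3 FPKM in control and 153.1, 153.3 and 150.3 FPKM in Sema4D libraries, a difference of -7.73% between the group means. The difference in Klf4 alone, -14.6 FPKM, was larger than that in the sum, -12.8 FPKM, and Klf6 differed by 7.54 FPKM. As a share of the sum, Klf4 went from 29.8% ± 0.604 to 22.7% ± 0.252, and Klf6 from 12.7% ± 0.602 to 18.7% ± 0.976. Klf9 went from 7.35% ± 0.191 to 8.9% ± 0.49. The other 7 genes moved by about 1 percentage point or less in mean share.

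**Figure D3:**
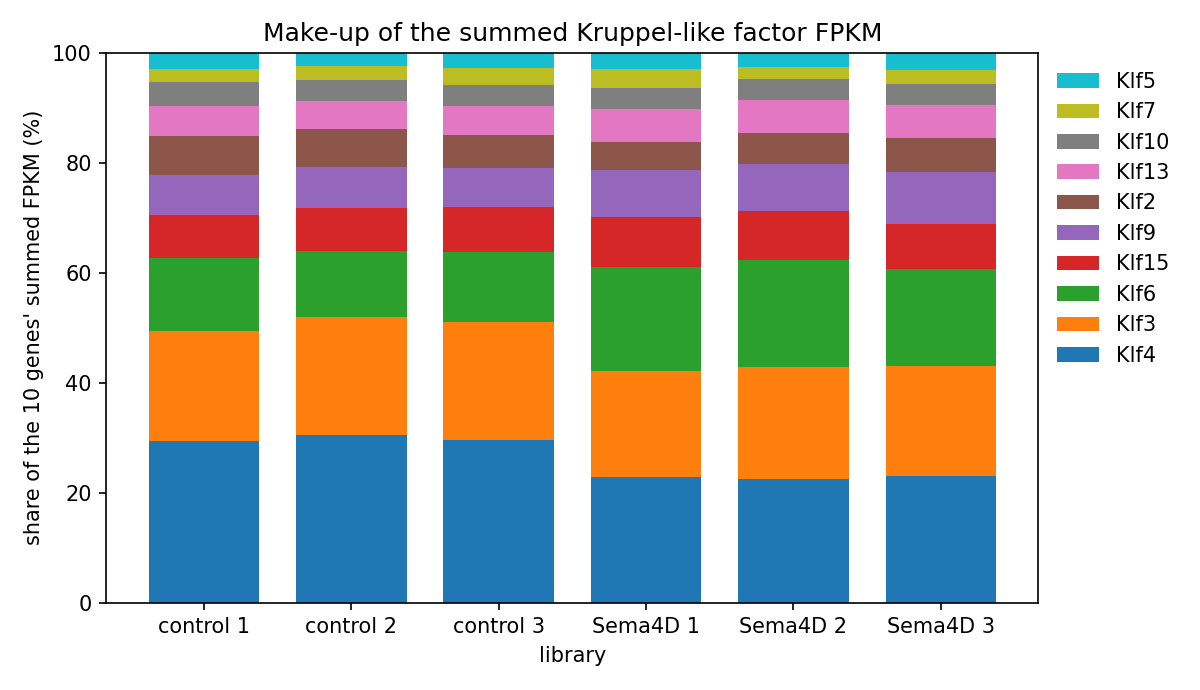
Share of each KLF gene in the summed FPKM of the 10 genes, per library, as stacked bars. The blue Klf4 segment is near 30% in the 3 control libraries and near 23% in the 3 Sema4D libraries, and the green Klf6 segment is wider in the Sema4D libraries.

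Of the 7 other KLF genes in the table, 4 were abundant enough to test. Of these, 1 rose and 2 fell, where 24.5% of all genes tested were called higher and 22.2% lower. Klf12, a CtBP-binding repressor like Klf3, fell from 6.88 ± 0.1 to 4.22 ± 0.13 FPKM (-0.60, limma adjusted p = 1.84e-05). Klf14, a Sin3-binding gene, fell (-0.35, adjusted p = 0.00626), and Klf16, of the same kind, rose (0.22, adjusted p = 0.0111, or 0.055 with equal column totals). Klf11, a relative of Klf10, did not pass (-0.03, adjusted p = 0.727). The erythroid gene Klf1 (0.042 to 0.168 FPKM) and Klf8 (0.767 to 1.2 FPKM) were under the filter, and Klf17 was listed at 0 in all 6 libraries.

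The SP genes encode the nearest relatives of KLFs, which bind the same GC boxes. Of 9, 4 were tested with limma and 0 passed the threshold, against 46.7% of all genes tested. Of the 4, 0 had an unadjusted p under 0.05. Their log2 fold changes lay between -0.07 in Sp3 and -0.02 in Sp4. With no filter Sp7, at 0.0862 to 0.892 FPKM, was called lower. Sp3 passed as lower after quantile normalization (-0.13, adjusted p = 0.021) and with equal column totals (-0.15, adjusted p = 0.00989). Whether SP and KLF genes differ in their change was not tested.

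Of 7 corepressor genes, 3 rose and 1 fell (median log2 fold change -0.02). Over all genes tested, 24.5% were called higher and 22.2% lower. Sin3a, the scaffold bound by KLF9, KLF10 and KLF13, rose from 14.2 ± 0.358 to 18.1 ± 0.888 FPKM (0.33, limma adjusted p = 0.000455), and the CtBP gene Ctbp1 also rose (0.21). Ctbp2 passed narrowly (0.13, adjusted p = 0.0496) and missed the threshold under both rescalings (0.258 and 0.368) and with no filter (0.069), and the histone deacetylase gene Hdac1 fell (-0.18). Hdac2 (-0.06, adjusted p = 0.11) and Hdac3 (-0.10, adjusted p = 0.061) were called lower under both rescalings. Of 4 acetyltransferase genes, Kat2a rose (0.15, adjusted p = 0.0136), a call that both rescalings lost (0.11 and 0.182), and 3 did not pass, of which Kat2b was called lower with equal column totals (-0.19, adjusted p = 0.0372).

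The kinase ERK5 (Mapk7) and MEF2 proteins are the known route from flow and growth signals to Klf2 and Klf4. Of 7 tested genes of this route, 2 rose and 1 fell (median 0.04). The shares over all genes tested were 24.5% higher and 22.2% lower. Mef2c, which also directs chondrocyte hypertrophy, stood at 4.3, 4.53 and 4.7 FPKM in control and 1.96, 1.9 and 1.8 FPKM in Sema4D libraries, so that its groups were far apart (-0.93, SE 0.06, limma adjusted p = 5.36e-06). Mef2a (0.04, adjusted p = 0.371) and Mef2d (0.07, adjusted p = 0.23) were more abundant and did not pass. The kinase genes Map3k2 (0.23, adjusted p = 0.00512) and Mapk7 (0.15, adjusted p = 0.0414) rose, Mapk7 missing the threshold under both rescalings (0.194 and 0.264) and with no filter (0.063).

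Genes of ubiquitin ligases and partners that control the turnover of KLF proteins were called in 2 of 9 cases, both higher (median 0.11). The share called over all genes tested was 46.7%. Smurf1, whose ligase is reported to degrade KLF2, rose from 7.96 ± 0.109 to 13.9 ± 0.178 FPKM (0.73, limma adjusted p = 1.29e-06). Vhl, whose product has been linked to KLF4 turnover, rose from 13.9 ± 0.88 to 22.7 ± 0.535 FPKM (0.68, adjusted p = 9.75e-06). The ligase genes Wwp1 (0.12, adjusted p = 0.134) and Fbxw7 (-0.06, adjusted p = 0.629), which act on KLF5, did not pass. With equal column totals Btrc was also called, as lower (-0.14, adjusted p = 0.0477). Protein levels were not measured.

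Klf9, Klf13 and Klf15 are known glucocorticoid-responsive genes, and other genes of that response are given here beside them. Of 7 tested, 6 rose and 1 fell (median 0.30), where 24.5% of all genes tested were called higher and 22.2% lower, and the counts were the same under both rescalings. With no filter on low values the falls were 2, Zbtb16 being added. The feedback inhibitor gene Errfi1 (1.14), the phosphatase gene Dusp1 (0.81) and the clock gene Per1 (0.47) rose, while Tsc22d3, which encodes the leucine zipper protein GILZ, fell (-0.31, limma adjusted p = 0.000384). The rises also included Nr3c1 (0.29), which encodes the glucocorticoid receptor itself, and Sgk1 (0.29). Many of these genes also respond to other signals. Fkbp5, a cochaperone gene, rose from 2.99 ± 0.339 to 3.89 ± 0.116 FPKM (0.30, adjusted p = 0.0104).

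Of 14 tested genes that have been reported as KLF targets in other cells, 4 rose and 7 fell (median -0.11). Among all genes tested, 24.5% were called higher and 22.2% lower. The target counts were the same under both rescalings and, over all 15 genes, with no filter on low values. Of these calls, Ccl5, Mmp9 and S1pr1 had a group mean under 1 FPKM and so passed the filter only through the group where they were high. Thbd, the anticoagulant receptor thrombomodulin and a textbook target of KLF2 and KLF4 in endothelium, stood at 47.3, 49.0 and 52.1 FPKM in control and 20.2, 22.6 and 21.5 FPKM in Sema4D libraries. Its groups were far apart (log2 fold change -1.17, SE 0.05, limma adjusted p = 3.95e-07). The cyclin gene Ccnd1 fell from 46.8 ± 0.938 to 29.5 ± 1.36 FPKM (-0.65, adjusted p = 3.47e-06). The chemokine gene Ccl5, a target of KLF13 in T cells, rose by 7.84 on the log2 scale while Klf13 was between 8.61 and 9.35 FPKM in all 6 libraries. Mmp9, a gelatinase gene tied to KLF5 in cartilage, was at 0.0499, 0.116 and 0.0803 FPKM in control and 2.66, 1.91 and 2.59 FPKM in Sema4D libraries (1.64, adjusted p = 2.6e-05 by limma with no filter) with Klf5 between 3.85 and 4.73 FPKM. The other rises were those of the cell cycle inhibitor gene Cdkn1a (0.21) and the TGF-beta coreceptor gene Eng (0.27). Whether any KLF protein acted on these genes in these cells was not tested.

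Other cell types could contribute to KLF levels, and their part in the changes was not tested. Macrophage markers went both ways: with no filter on low values, 2 of 6 fell, Lyz2 (-0.46, limma adjusted p = 0.0212) and Tyrobp (-0.70, 0.0325), and Adgre1 rose (0.48, 0.00352). The fit with no filter called 3006 of 17461 genes higher and 2786 lower. Adgre1 was at 0.0784 to 0.268 FPKM in control and 0.563 to 0.75 FPKM in Sema4D libraries, and Cd68 (0.14) and Csf1r (0.12) did not pass. Only Lyz2, Tyrobp and Cd68 met the filter of 1 FPKM, Tyrobp through its control values alone. The macrophage list summed to 22.9 to 30.4 FPKM in control and 19.6 to 22.0 FPKM in Sema4D libraries, and the leukocyte gene Ptprc was at 0.0595 to 0.127 FPKM. Fibroblast markers were abundant in both groups (sums 5341 to 5690 FPKM and 5528 to 5735 FPKM), most of it Col1a1. Of 6 tested, 3 rose and 1 fell, against 24.5% of all genes tested called higher and 22.2% lower. Those that rose were Pdgfra (0.86), Lum (0.71) and Dcn (0.52), and Thy1 fell (-0.15), with Col1a1 called lower as well with equal column totals (-0.15). Of 5 osteoblast markers, Alpl (-0.21, adjusted p = 0.049 by limma) and Runx2 (-0.21, adjusted p = 0.0281) were tested and fell, where 22.2% of all genes tested were called lower. Both calls were lost with no filter (0.0679 and 0.055). Sp7, also of this list, was called lower with no filter (-0.53, adjusted p = 0.00302 by limma). It was at 0.574 to 0.892 FPKM in control and 0.0862 to 0.241 FPKM in Sema4D libraries. The osteoblast list summed to 8.54 to 9.28 FPKM in control and 6.65 to 7.08 FPKM in Sema4D libraries. No marker of these lists was at 0 in all 6 libraries.

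Genes whose log2 values followed a KLF gene most closely over the 6 libraries were read for the largest rise and the largest fall. For Klf6 they were Atp2b1, Rbpms and Rasa2 (Pearson's r 0.999, 0.998 and 0.998), and for Klf4 Gbf1, Maged2 and Slc38a3 (0.999, 0.999 and 0.999). With 6 libraries in 2 groups, such values largely restate the difference between the groups and are given as a description.

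**Figure D4:**
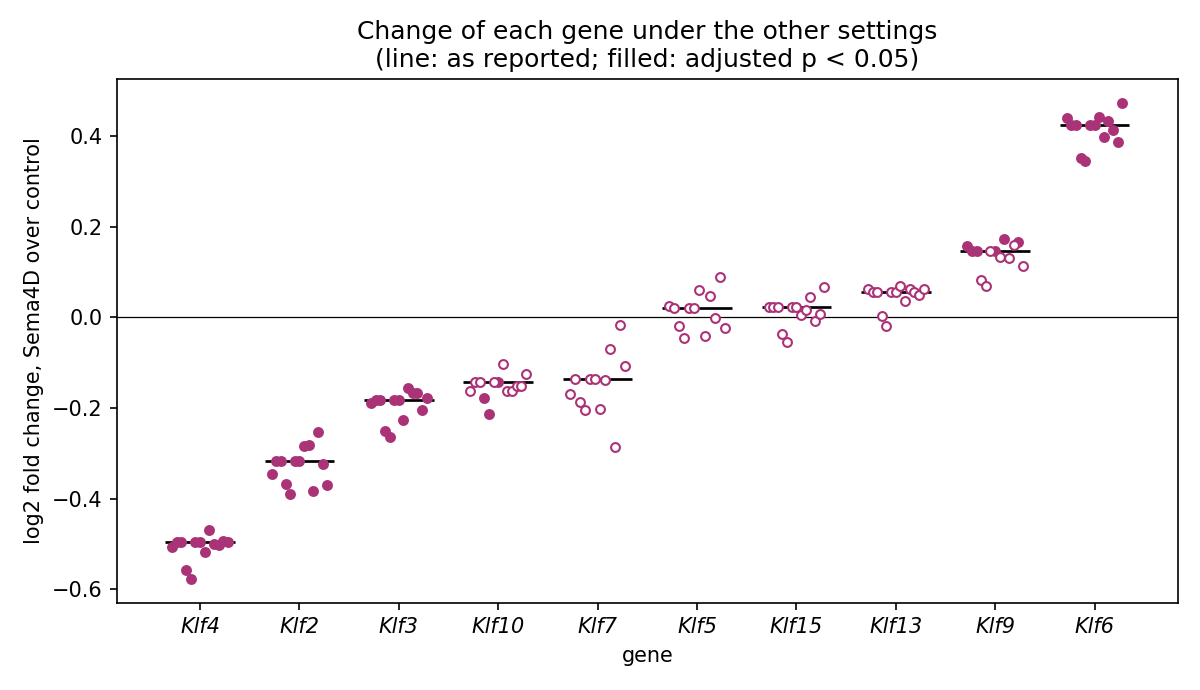
Log2 fold change of each KLF gene, Sema4D over control, under each of the other settings (points, 12 or 13 per gene) and as reported (line). Filled points passed an adjusted p of 0.05. Klf4, Klf2, Klf3 and Klf6 passed in every setting shown, Klf9 in 6 and Klf10 in 3.

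Klf4, Klf2, Klf3 and Klf6 kept their call in each of the 13 other settings with a test against no change. Over them Klf4 ranged from -0.58 to -0.47, Klf2 from -0.39 to -0.25, Klf3 from -0.26 to -0.16 and Klf6 from 0.35 to 0.47. The adjusted p of Klf2 lay between 0.00354 and 0.039 (limma), the highest without control replicate 1. That of Klf3 lay between 0.00187 and 0.0381, the highest without Sema4D replicate 1.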

How the data were processed

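RNA-seq was done on total RNA of 3 control and 3 Sema4D libraries. The authors deposited 1 FPKM value per gene and library, made on mm10 with Cufflinks 2.2.1, TopHat2 2.0.13, SAMtools 0.1.19 and Bowtie2 2.2.3, per the submitters' processing notes, which assign no roles. Annotation, strand setting and scaling between libraries are not given in the sources used here. A count test does not suit FPKM. Depth came from 1681 genes with a single GENCODE M21 transcript over 2000 nucleotides, in which 79% to 88.4% of low values came within 0.15 of whole fragments, too few to recover reads.

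Genes averaging 1 FPKM or more (11603 of 24346) were fitted as log2(FPKM + 1) with limma 3.58.1 (R 4.3.3; two-sided, with a trend). The model had no replicate block. Adjustment was by Benjamini-Hochberg over all genes tested. The fit was tested on simulated data with independent noise for each gene and library. That test cannot speak to scaling between libraries or to effects shared by replicates. Positions, motifs and figures used matplotlib 3.10.9, pandas 2.3.3 and numpy 2.4.6 in Python 3.11.15, with RefSeq positions and promoters of GRCm38.p6. Named were the 10 genes, up to 4 genes with the smallest p per list, called genes of small lists and the 3 closest followers of the extreme genes. Other list members are named where counts were small, a choice made with their values in view, and not always in order of p. The 10 genes, the lists, the motifs and the alternatives were chosen with earlier results of these data known.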

Additional observations from a re-analysis of the deposited data

How the results depend on the processing

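Klf2, Klf3, Klf4 and Klf6 kept direction and call under 13 of 13 alternatives. Klf7 missed the threshold in 12 of 12, ranging from -0.29 to -0.017. The other 5 KLF genes changed sign or call with a setting, as follows, and the cause was not tested. Of all calls 52.4% were higher, against 38.8% after quantile normalization and 34.5% with equal column totals, where the median of all genes stood at -0.05 and -0.07. Under these 2 rescalings the KLF rises became 1 and 1, Klf9 stood at 0.082 and 0.070, Klf10 passed as a fall (-0.18 and -0.21), Klf5 turned to -0.020 and -0.045 and Klf15 to -0.036 and -0.054. Klf13 turned to -0.018 with equal totals. Without a trend Klf10 passed (-0.14, adjusted p = 0.0436). With a mean of at least 5 FPKM, 8 KLF genes were tested and 3 did not pass, since Klf5 and Klf7 were under that filter. Against a minimum change of 1.5-fold, 513 genes were higher and 199 lower, and 0 KLF genes were higher, 0 lower and 10 not called. With 1 library left out, KLF rises numbered 1 to 2, Klf9 ranged from 0.11 to 0.17, Klf5 from -0.042 to 0.090 (below 0 without control replicate 2 or Sema4D replicate 1 or 3) and Klf15 from -0.0078 to 0.067 (below 0 without Sema4D replicate 1).

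Same-numbered libraries did not deviate together in every pair (r = 0.14, -0.081 and -0.054 across genes), and 1 of 3 numbers had an r over 0.1. Values this small neither establish nor exclude a pairing by number. Control replicate 2 correlated best with Sema4D replicate 3 (0.136) and control replicate 3 with Sema4D replicate 2 (0.103). The other combinations of unlike numbers were below 0. Deviations were taken from the group mean and sum to 0 within a group, so a positive r forces a negative r elsewhere. No pairing can be read from these signs, and no label states one. With the replicate block 2638 genes were higher and 2356 lower, 1 KLF gene rose and 3 fell, and Klf9 (0.15) had an adjusted p of 0.0657. By estimated fragments, counting error was highest for Klf5 (about 193 to 253 per library, 6.29% to 7.2%), Klf2 and Klf10.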
